A study of Homo sapiens with 6 samples.

Results

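The mitosis and cell division genes described here are 33 of the 1305 genes in the authors' table, namely those annotated there with the biological process mitotic cell cycle, mitotic nuclear division, cell division or chromosome segregation. Of 57 genes with such an annotation, 24 were set aside by name because they belong to other functional groups of the same table. Among them were genes for cyclin-dependent kinase inhibitors, MCM helicase subunits, some mitotic kinesins and some outer kinetochore proteins. The kinesin genes KIF22, KIF18B and CENPE and the kinetochore gene DSN1 were not among those names and remained members. Of the 33, the table annotated 23 with cell division, 22 with mitotic cell cycle, 18 with mitotic nuclear division and 3 with chromosome segregation. RNA was sequenced from NCI-H292, an established line of human lung carcinoma cells. The cells were kept for 48 hours with 50 nM mitoxantrone, a drug that traps type II topoisomerase on cut DNA, or with DMSO, the solvent, at 1 part in 1000. There were 3 libraries per treatment, with totals of 14763000 to 17818000 reads (solved from the FPKM values). Whether these totals count mapped or assigned reads is not stated. The labels name no engineered allele, and both groups come from this line alone. Whether each library had its own culture is not said in the labels. The p-values here therefore reflect how much these 6 libraries vary, and part or all of that may be technical.

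The table is a selection: its smallest absolute log2 fold change was 1.0 and its largest adjusted p 0.043 in the authors' deposited table. Membership therefore required a change in these same libraries, and neither the number of members that changed nor the lack of overlap between treatments is evidence about mitotic genes in general. Genes outside the table were not analysed here. Of 18 marker genes of epithelial, mucous, leukocyte, fibroblast and endothelial cells, 5 were in the table. The epithelial keratin genes KRT8 and KRT18 were abundant, at 358 to 489 FPKM with DMSO and 830.02 to 1183 with mitoxantrone. The listed markers of other cell types, CD14, CDH5 and COL1A1, were low and lower still with mitoxantrone. Their treatments did not overlap, as for 98.6% of all listed genes, and being listed required a change. Markers outside the table have no values here. CD14 had 1.51 to 2.44 FPKM with DMSO and 0.79 to 0.88 with mitoxantrone. CDH5 had 3.98 to 5.68 and 1.93 to 2.42 FPKM, and COL1A1 1.83 to 2.61 and 0.73 to 1.02 FPKM. Their part in the values below was not tested.

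As background, a cell divides by raising cyclin-dependent kinase activity at the end of G2, assembling a spindle whose microtubules attach to the kinetochore of each chromatid, cutting cohesin once the attachments are checked, and splitting the cytoplasm. Entry needs cyclins A and B with the phosphatase CDC25C and is held back by the kinase WEE1, while exit needs the anaphase-promoting complex with its activator CDC20. Many of these genes are transcribed only late in the cell cycle. Their promoters often carry CCAAT boxes, which bind NF-Y, and a short element called the cell cycle genes homology region (CHR), which binds the MuvB core of the DREAM complex, a repressor in arrested cells.

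Promoter windows from 250 bases before to 50 bases after the annotated gene start were matched for 26 members in RefSeq (GRCh38.p14). No window was used for CCND1, CCND2, FAM64A, LRRCC1, MIS18A, RAD21 and WEE1. Since nearly all members moved the same way, the windows of 5 members are printed, 5′ to 3′ on the gene's own strand, with motif letters in capitals. CCNB2, CDC20, PSRC1 and KIF22 are shown because they carry both CHR and CCAAT letters. CCNA2 is shown as a cyclin gene that fell 2.15-fold, beside 2.32-fold for CCNB2. Its window has CCAAT letters but neither CHR form that was searched. Other forms were not searched, and among them CTTGAA does occur in the CCNA2 window, in small letters. The window therefore cannot be taken to lack a CHR. The windows lie at chr15:59104896-59105195, plus strand (CCNB2), chr1:43358731-43359030, plus strand (CDC20), chr1:109283096-109283395, minus strand (PSRC1), chr16:29790501-29790800, plus strand (KIF22) and chr4:121823834-121824133, minus strand (CCNA2).
CCNB2: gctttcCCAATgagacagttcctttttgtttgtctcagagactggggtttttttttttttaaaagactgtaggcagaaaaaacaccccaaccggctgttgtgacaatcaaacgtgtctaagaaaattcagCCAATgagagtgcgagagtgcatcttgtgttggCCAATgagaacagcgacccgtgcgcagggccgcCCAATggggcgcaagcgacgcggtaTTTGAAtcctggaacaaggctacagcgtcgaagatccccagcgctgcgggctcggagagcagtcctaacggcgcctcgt
CDC20: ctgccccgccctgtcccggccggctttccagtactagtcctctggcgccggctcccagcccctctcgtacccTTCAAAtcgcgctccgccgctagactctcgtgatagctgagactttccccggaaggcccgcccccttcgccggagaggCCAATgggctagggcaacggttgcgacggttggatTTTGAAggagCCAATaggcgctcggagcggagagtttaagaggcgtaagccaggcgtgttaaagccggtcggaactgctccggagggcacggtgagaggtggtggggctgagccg
PSRC1: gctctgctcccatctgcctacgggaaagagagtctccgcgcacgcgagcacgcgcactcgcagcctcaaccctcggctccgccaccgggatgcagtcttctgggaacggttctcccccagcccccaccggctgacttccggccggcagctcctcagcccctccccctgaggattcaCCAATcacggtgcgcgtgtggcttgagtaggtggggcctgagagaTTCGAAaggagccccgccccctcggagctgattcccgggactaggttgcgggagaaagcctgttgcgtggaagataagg
KIF22: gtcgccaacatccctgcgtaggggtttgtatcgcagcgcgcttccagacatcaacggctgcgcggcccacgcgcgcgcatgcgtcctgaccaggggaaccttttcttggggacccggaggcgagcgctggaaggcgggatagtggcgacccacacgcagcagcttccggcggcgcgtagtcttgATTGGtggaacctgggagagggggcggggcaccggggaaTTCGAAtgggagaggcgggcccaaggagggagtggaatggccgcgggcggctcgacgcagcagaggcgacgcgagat
CCNA2: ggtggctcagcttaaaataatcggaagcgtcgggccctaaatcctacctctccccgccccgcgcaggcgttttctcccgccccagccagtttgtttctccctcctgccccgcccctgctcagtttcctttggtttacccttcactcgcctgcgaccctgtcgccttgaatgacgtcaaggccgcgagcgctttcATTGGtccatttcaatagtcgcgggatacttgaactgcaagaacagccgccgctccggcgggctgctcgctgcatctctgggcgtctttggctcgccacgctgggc

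The CHR letters searched were TTTGAA and TTCGAA, the CCAAT letters were CCAAT, and the E2F letters were TTTCCCGC, TTTGGCGC, TTTCGCGC and TTTGCCGC, each on both strands, and no form contains a form of another motif. CHR letters were found in 13 of the 26 windows (50.0%), against 16.6% of all 27305 RefSeq windows of this length and 18.0% of the 817 windows of deposited genes. CCAAT letters were found in 15 (57.7%), against 35.7% of all windows and 37.2% of those of deposited genes. E2F letters were found in 4 (15.4%), against 3.3% and 4.8%. CHR and CCAAT letters stood together in 9 windows (34.6%, against 6.6% and 9.2%). The median GC content was 63.0% for the members, 62.3% for deposited genes and 58.3% over all windows. Its part in these shares was not tested. Matches are a description of letters, not of bound sites. The start is the annotated gene start, which need not be the start used in these cells, so the absence of letters from the windows of CDC25C, CENPE, CENPJ, CENPV, CDC7, DSN1 and RFC4 covers this window only.

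**Figure D1:**
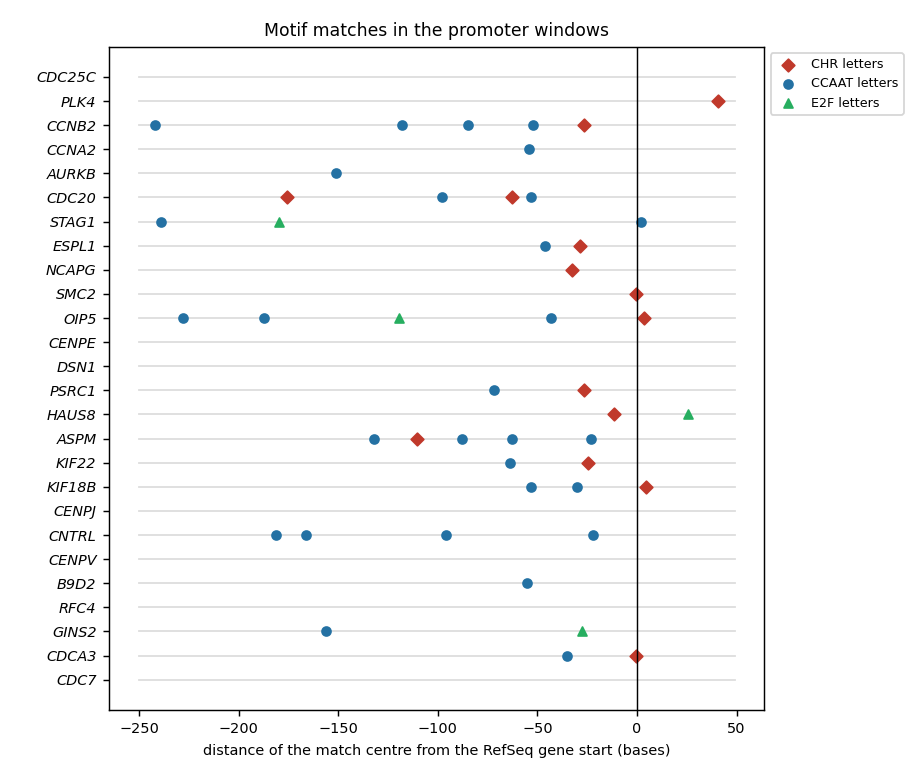
Positions of CHR, CCAAT and E2F letters in the 26 promoter windows, as the distance in bases of each match's centre from the annotated start (vertical line); grey lines span the window. In CCNB2, PSRC1 and KIF22 the CHR letters lie just before the start, with CCAAT letters further upstream, while 7 windows have no match.

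In all, 31 of the 33 genes were lower with mitoxantrone, and the cyclin D genes CCND1 and CCND2 were higher. Log2 fold changes of the falls ran from -1.75 to -1.03 (3.36-fold to 2.04-fold lower), with a median of -1.11. The weak end of this range was set by the selection, since the smallest absolute log2 fold change in the authors' table was 1.0. Most falls lay near that limit, and smaller falls could not appear. The narrow range is therefore no evidence that mitotic genes fell to a similar degree. All 33 had a mean of at least 10 normalized reads, that is, reads divided by the authors' size factors. All 33 passed an adjusted p of 0.05 (edgeR quasi-likelihood, Benjamini-Hochberg), with values from 2.6e-06 to 0.0054. Of all 1305 listed genes, 92% passed, 35.3% as lower and 56.7% as higher. Treatments did not overlap for any of the 33, as for 98.6% of all listed genes. The median log2 fold change was -1.11 over the 33 members and 1.26 over all listed genes. Among listed genes with a negative fold change the median was -1.51. In bulk RNA, fewer dividing cells and less of these transcripts per dividing cell cannot be told apart.

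**Figure D2:**
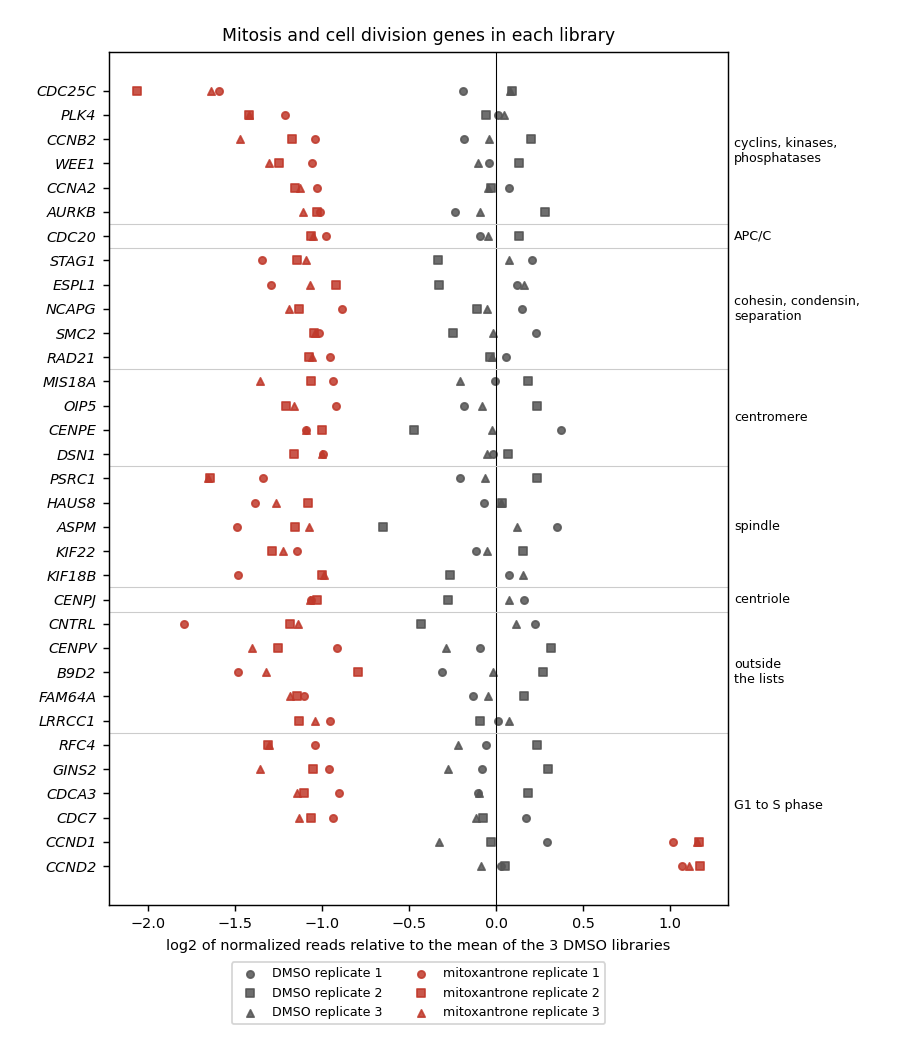
Normalized reads of the 33 genes in each of the 6 libraries, as log2 relative to the mean of the 3 DMSO libraries (grey, DMSO; red, mitoxantrone; marker shape, replicate), grouped by role. All mitoxantrone libraries lie below 0 for 31 genes and above 0 for CCND1 and CCND2, and CDC25C lies furthest left.

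The cyclins, kinases and phosphatase of mitotic entry held the largest fall. CDC25C, the phosphatase that activates the cyclin B kinase, had 316, 385 and 381 normalized reads with DMSO and 119.9, 86.5 and 116 with mitoxantrone. Its level thus went from 361 ± 38.8 (SD, n = 3) to 107 ± 18.2 (SD, n = 3) (log2 fold change -1.75, standard error 0.17). WEE1, the kinase that restrains the same cyclin B kinase, fell as well, from 1464 ± 126 (SD, n = 3) to 637 ± 57.8 (SD, n = 3), a 2.30-fold fall. Both the activator and the inhibitor of mitotic entry were therefore lower, and the ratio between them is given further on.

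PLK4, the kinase that starts centriole duplication, had 742, 707 and 762 normalized reads with DMSO and 318, 276 and 275 with mitoxantrone (log2 fold change -1.35, standard error 0.13). Its DMSO libraries were close to one another, and the mitoxantrone libraries all lay far below them. CCNB2, which encodes cyclin B2, had 2107, 2746 and 2330.4 normalized reads with DMSO and 1162, 1064 and 863 with mitoxantrone. CCNA2, which encodes cyclin A2, had 3334, 3098 and 3062 with DMSO and 1549, 1419 and 1447 with mitoxantrone. These 2 cyclins fell 2.32-fold and 2.15-fold. AURKB, the catalytic kinase of the chromosomal passenger complex, which corrects faulty attachments, had 1129.9, 1614 and 1245 with DMSO and 660.4, 651 and 615 with mitoxantrone, a 2.07-fold fall. Its DMSO replicate 2 was the highest of the 6 libraries, and without that library its log2 fold change was -0.89.

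CDC20, the activator of the anaphase-promoting complex and target of the spindle checkpoint, had 3626, 4235 and 3739 normalized reads with DMSO and 1968, 1853 and 1867 with mitoxantrone. It fell 2.04-fold, among the weakest changes here. CDC20 was the only gene of the 31 in the list for the anaphase-promoting complex and spindle checkpoint that was in the table. The others were not analysed here.

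Genes that hold, condense and part sister chromatids formed a set of 5, all lower. RAD21, the cohesin subunit that separase cuts, had 4913, 4602 and 4636 normalized reads with DMSO and 2432, 2241 and 2268 with mitoxantrone. STAG1, which encodes another cohesin subunit, had 1047, 720.2 and 954 with DMSO and 357, 411 and 426 with mitoxantrone (log2 fold change -1.19, standard error 0.16). In STAG1 the DMSO libraries were uneven, with replicate 2 lowest, but still above every mitoxantrone library. ESPL1, the separase itself, went from 952 ± 169 (SD, n = 3) to 448 ± 57.3 (SD, n = 3). SMC2, a subunit common to both condensin complexes, had 2206, 1584 and 1862 with DMSO and 929, 913 and 917 with mitoxantrone. NCAPG, a condensin I subunit, fell 2.09-fold. SMC2 and RAD21 had log2 fold changes of -1.03 each.

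At the centromere, MIS18A and OIP5 belong to the complex that licenses loading of the centromeric histone CENP-A. MIS18A had 581, 662 and 506 normalized reads with DMSO and 305, 279 and 228 with mitoxantrone, a 2.15-fold fall, and OIP5 fell 2.13-fold. DSN1, a subunit of the MIS12 kinetochore complex, had 801, 851 and 784 with DMSO and 408, 363 and 406 with mitoxantrone, a narrow spread in both treatments. CENPE, the kinetochore motor that helps bring chromosomes to the spindle equator, had 1486, 829 and 1130.1 with DMSO and 538, 573 and 538 with mitoxantrone. The DMSO libraries of CENPE differed far more among themselves than the mitoxantrone libraries did. Its log2 fold change was -1.06 (standard error 0.18), and -0.83 without DMSO replicate 1.

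Among spindle genes, PSRC1, a microtubule-binding protein of the spindle, fell most. It had 333, 452 and 368 normalized reads with DMSO and 152, 123 and 122 with mitoxantrone (log2 fold change -1.54, standard error 0.17). HAUS8, which encodes a subunit of the augmin complex that branches spindle microtubules, had 266, 286 and 284 with DMSO and 107, 132 and 116 with mitoxantrone. KIF22, a motor that pushes chromosome arms away from the poles, had 2011, 2432 and 2099.9 with DMSO and 988, 894 and 933 with mitoxantrone. KIF22 and HAUS8 thus differed in DMSO reads (means of 2181 and 279) and fell 2.32-fold and 2.35-fold. KIF18B, a kinesin that shortens astral microtubules, had a log2 fold change of -1.14. ASPM, a spindle pole protein with the longest gene model here (10887 bases), had 4106, 2056 and 3499.9 with DMSO and 1148, 1449 and 1527 with mitoxantrone. Its DMSO replicate 2 stood far below the other 2, and its log2 fold change of -1.23 had a standard error of 0.21.

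CENPJ, which sets centriole length, had 509.5, 375 and 479 normalized reads with DMSO and 218, 223 and 217 with mitoxantrone, and was the only listed gene of the 27 in the centrosome and centriole list. Outside the lists, CNTRL, the centriole appendage protein centriolin needed for cytokinesis, had 430.5, 273 and 399 with DMSO and 106, 162 and 167 with mitoxantrone. CNTRL fell 2.53-fold, the fourth largest fall after CDC25C, PSRC1 and PLK4. CENPV had 701, 931 and 613 with DMSO and 397, 314 and 283 with mitoxantrone. LRRCC1, a centriolar protein whose authors' fold change of -1.01 lay nearest the selection threshold, had 296, 276 and 309 with DMSO and 152, 134 and 143 with mitoxantrone. FAM64A (PIMREG) fell 2.21-fold. B9D2, a protein of the ciliary transition zone, was the member with the fewest reads, from 88.6 ± 18.0 (SD, n = 3) to 39.4 ± 10.3 (SD, n = 3). Its adjusted p (edgeR quasi-likelihood) of 0.0054 became 0.083 when DMSO replicate 2 and mitoxantrone replicate 1 were left out together (7.4e-06 to 0.083 over the alternatives).

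Among the members, the list of G1 to S phase genes was the only role group with changes in both directions. RFC4, a subunit of the clamp loader of DNA replication, had 852, 1045 and 763 normalized reads with DMSO and 431, 357 and 359.6 with mitoxantrone. CDC7, the kinase that fires replication origins, had 839, 707 and 689 with DMSO and 389, 357 and 340.3 with mitoxantrone. GINS2, a subunit of the replicative helicase, fell 2.16-fold. CDCA3, counted here only by its place in the list, fell 2.06-fold.

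CCND1 encodes cyclin D1, which activates CDK4 and CDK6 in G1 and is induced by growth factor signalling. It had 8323, 6643 and 5402 normalized reads with DMSO and 13723, 15246 and 15119 with mitoxantrone. Cyclin D2, encoded by CCND2, had 1917, 1950.5 and 1771 with DMSO and 3934, 4231 and 4055 with mitoxantrone. The log2 fold changes were 1.11 (standard error 0.17) and 1.12 (standard error 0.13). Both lay below the median of 1.26 over all listed genes, which includes the falls and is no median of the rises. Both calls depended on the scaling. With TMM size factors computed over the listed genes, which shift the median log2 fold change of all listed genes by -0.69, CCND1 and CCND2 had log2 fold changes of 0.42 and 0.43 and adjusted p-values of 0.36 and 0.095 (edgeR quasi-likelihood). With DESeq2 size factors over the listed genes, which shift it by -0.99, both log2 fold changes were 0.12 with an adjusted p of 1 (1.9e-09 to 1 for CCND1 and 7.2e-15 to 1 for CCND2 over the alternatives). Those factors centre genes that were selected as changed and were mostly higher. The 31 falls passed under every scaling tried. With the TMM and DESeq2 factors that was no trait of the members, since 512 listed genes passed as lower with each. The authors' table holds the same number of genes with a fall, 512.

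Levels per gene length (FPKM) spanned from 2.53 for CNTRL to 122 for CDC20 with DMSO, with a median of 16.9. CDC20 (122 ± 5.23, SD, n = 3), CCND1 (90.6 ± 21.0), CCNB2 (84.2 ± 8.08), CCNA2 (72.9 ± 5.46) and RAD21 (49.1 ± 3.40) were the 5 highest. With mitoxantrone, CCND1 was the highest at 187 ± 14.4 FPKM (SD, n = 3), and CDC20 followed at 57.0 ± 1.15 (SD, n = 3). CCND2 went from 16.9 ± 0.760 to 34.9 ± 1.75 FPKM (SD, n = 3 each), the level of CCNB2 with mitoxantrone (34.5 ± 4.35). The 31 lower genes summed to 701 to 723 FPKM in the DMSO libraries and 307 to 324 in the mitoxantrone libraries. The 2 cyclin D genes summed to 89.5 to 132 and 203 to 232. Because the genes were split by the direction of their change in these libraries, the direction of each sum was fixed beforehand.

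**Figure D3:**
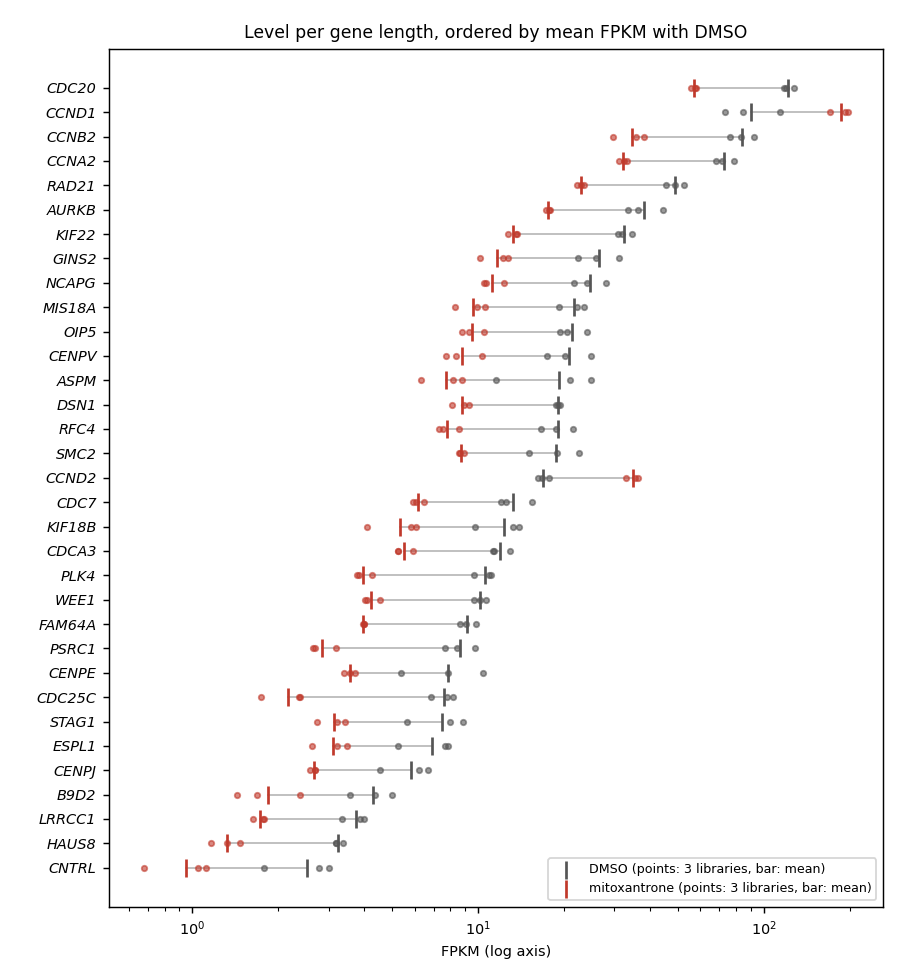
FPKM of each gene on a log axis, ordered by the mean with DMSO (points, libraries; bars, means of 3 libraries; grey, DMSO; red, mitoxantrone). The 31 lower genes, from CDC20 at the top to CNTRL at the bottom, shifted left, and CCND1 and CCND2 shifted right.

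Ratios between genes within a library do not depend on how libraries are scaled, and 5 were computed from reads per base after the fold changes had been seen. The paired genes differ in length, as with WEE1 and CDC25C (9239 and 3042 bases) or CCNB2 and CCNA2 (1825 and 2797 bases). The deviations of libraries with gene length, described below, can therefore enter the ratios, and their part was not tested. WEE1 stood at 1.48, 1.37 and 1.18 times CDC25C with DMSO and 1.93, 2.34 and 1.68 times with mitoxantrone. The treatments did not overlap, and the mean log2 ratio was 0.56 higher with mitoxantrone. Its two-sided exact permutation p was 0.10, the smallest that 3 against 3 libraries allow, and 0.30 after Benjamini-Hochberg adjustment over 3 tested ratios. The direction was known beforehand from the log2 fold changes (-1.75 for CDC25C and -1.20 for WEE1), and the adjustment does not cover the choice of pairs. The ratio of CCNB2 to CCNA2 was 0.969, 1.36 and 1.17 with DMSO and 1.15, 1.15 and 0.914 with mitoxantrone, which overlapped (exact permutation p = 0.50, adjusted 0.50). The ratio of RAD21 to STAG1 was 5.92, 8.07 and 6.13 against 8.60, 6.89 and 6.72, also with overlap (exact permutation p = 0.50, adjusted 0.50). The direction of the ratio of CCND1 or CCND2 to CCNA2 was set by the selection and was not tested. CCND1 per CCNA2 went from 1.24 ± 0.212 to 5.80 ± 0.587 (SD, n = 3 each), and CCND2 per CCNA2 from 0.232 ± 0.0119 to 1.08 ± 0.0869 (SD, n = 3 each).

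**Figure D4:**
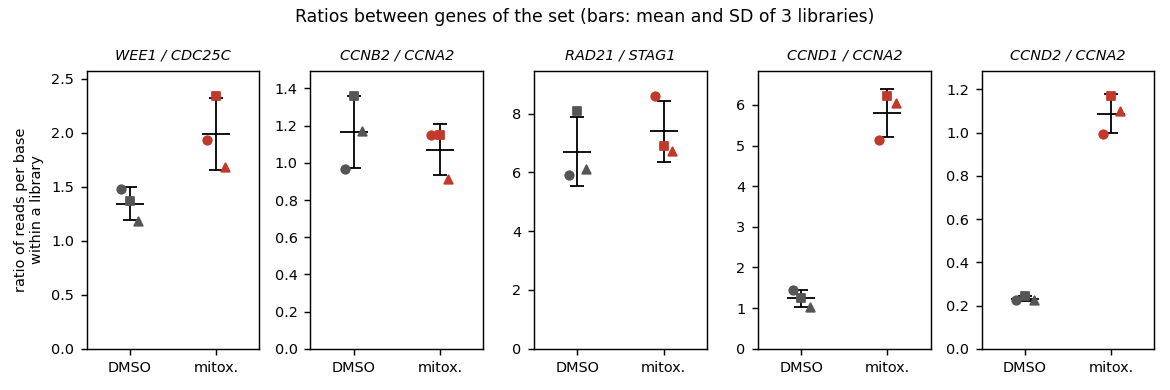
Ratios of reads per base between pairs of genes in each library (marker shape, replicate; bars, mean and SD of 3 libraries; each axis starts at 0). The libraries of the 2 treatments are apart for WEE1 to CDC25C, CCND1 to CCNA2 and CCND2 to CCNA2 and overlap for CCNB2 to CCNA2 and RAD21 to STAG1.

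In some libraries, the deviation from the other libraries of the treatment varied with gene length. DMSO replicate 2 relative to the mean of the other 2 DMSO libraries had a median log2 value of -0.26 over the 16 longer members and 0.28 over the 17 members of at most 4482 bases. Across the 33 genes, which share these libraries and are not independent, the correlation of that value with log2 length was -0.76. The correlation was 0.73 in DMSO replicate 1 and 0.42 in DMSO replicate 3. In mitoxantrone replicates 1, 2 and 3 it was -0.43, 0.12 and 0.55. The medians of longer and shorter members were -0.06 and 0.21 in mitoxantrone replicate 1 and -0.01 and -0.11 in mitoxantrone replicate 3. Over the 1105 listed genes with a mean of at least 10 normalized reads the correlations were 0.20, -0.30 and 0.18 in DMSO replicates 1, 2 and 3 and -0.29, 0.16 and 0.19 in mitoxantrone replicates 1, 2 and 3. ASPM, CNTRL, CENPE, STAG1 and ESPL1 were low in DMSO replicate 2, and the short genes OIP5, B9D2 and MIS18A were high in it. Of the 16 longer members 12 were below 0 in DMSO replicate 2, and the other 4 were CDCA3 (0.285), WEE1 (0.205), CCND2 (0.081) and HAUS8 (0.059). Without DMSO replicate 2 and mitoxantrone replicate 1, the libraries with negative correlations, 32 of the 33 genes passed and only B9D2 did not. Of all 1305 listed genes, 407 then passed as lower and 648 as higher. In that fit ASPM had a log2 fold change of -1.35, CENPE of -1.24, SMC2 of -1.15, CCND1 of 1.15 and AURKB of -0.91.

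**Figure D5:**
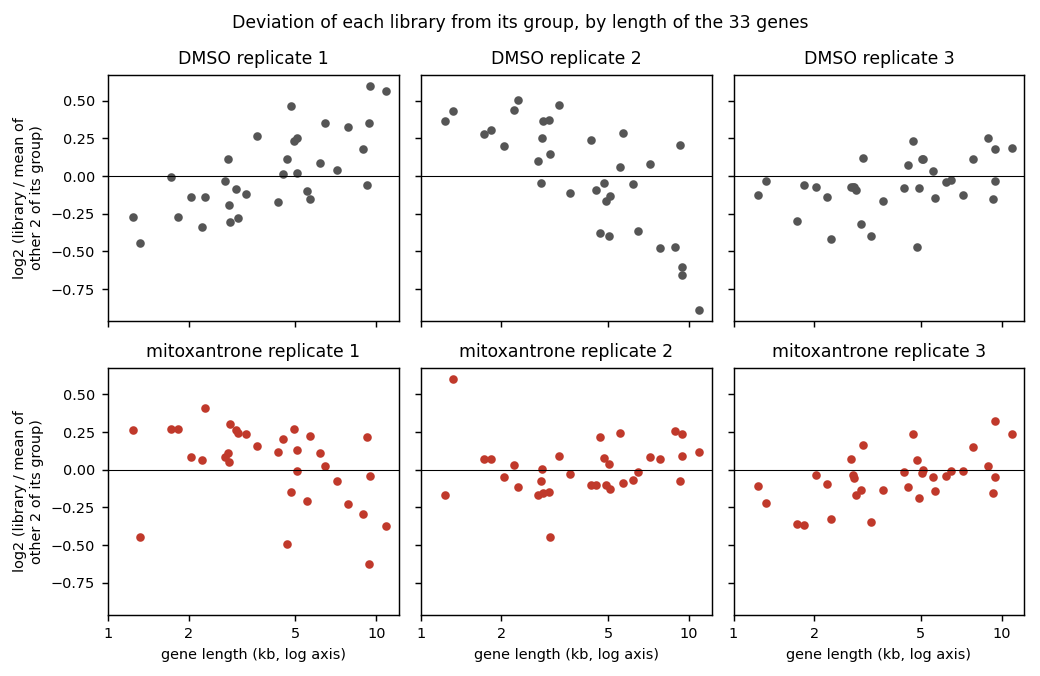
For each library, the log2 of its normalized reads over the mean of the other 2 libraries of its treatment, against gene length on a log axis, for the 33 genes. Correlations are negative in DMSO replicate 2 (-0.76) and mitoxantrone replicate 1 (-0.43) and positive in DMSO replicates 1 (0.73) and 3 (0.42) and mitoxantrone replicates 2 (0.12) and 3 (0.55); the 3 panels of a treatment are not independent.

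Among cellular locations in the table's annotation, the nucleus was given for 24 of the 33 members (of 297 listed genes with it), the cytosol for 20 (of 157) and the cytoplasm for 16 (of 265). The centrosome was given for 10 of the 33 (B9D2, CCNB2, CDC20, CENPJ, CNTRL, ESPL1, HAUS8, LRRCC1, NCAPG and PLK4), out of 22 listed genes with that location. The spindle was given for 5 of 12 listed genes, the spindle pole for 4 of 7 and the centriole for 3 of 4. Both listed genes of the condensin complex, NCAPG and SMC2, were members. The mitotic locations among these overlap in meaning with the terms of the rule.

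Of 288 genes in 8 role lists of the division cycle, 38 were in the table, of which 35 passed as lower and 3 as higher. Of all 1305 listed genes, 35.3% passed as lower and 56.7% as higher. Since the table holds only genes selected as changed, passing is no evidence about the lists. The lists hold none of the 24 annotated genes set aside by name, of which 22 passed as lower and 2 as higher (median log2 fold change -1.33). Without those, the lists' counts in the table ran from 0 of 24 for cytokinesis to 11 of 50 for the spindle, and they depend on which genes each list holds. Besides the 28 members in the lists, 10 list genes lay in the table without the annotation terms. DLGAP5, a spindle assembly factor, had a log2 fold change of -1.40, UHRF1, which maintains DNA methylation through replication, -1.32, and STMN1, which destabilises microtubules, -1.26. FOXM1, a transcription factor that drives G2 and M phase genes, was at -1.16 (standard error 0.14). PLK3, a stress-induced relative of the polo kinases, was higher (log2 fold change 2.08, standard error 0.17). In the cyclin, kinase and phosphatase list PLK3 was the 1 gene that rose and 7 fell.

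Strand was not stated for these libraries, so reads from overlapping genes cannot be told apart. In GENCODE release 29, exons of other genes covered at least 10% of the exon bases of 7 members. The overlap reached 38.0% for OIP5 (with OIP5-AS1), 33.1% for NCAPG (with LCORL) and 21.2% for STAG1 (with PCCB). It was 14.2% on the opposite strand for RAD21, 13.0% for KIF22, 10.3% for CCND1 and 13.8% on the same strand for CCND2.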

How the data were processed

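The members and role lists were chosen with earlier results of these data known. DESeq2, Cufflinks 2.2.1, HTSeq 0.6.1, HISAT2 2.0.1 and cutadapt 1.9.1 are listed, without role or order, per the submitters' processing notes. Genome build, annotation and strandedness: not given in the sources used here. Per the file headers, the authors deposited raw read counts and FPKM per gene and library, gene length, the mean normalized count (a DESeq2 signal), log2 fold change, Wald score, p-value and adjusted p-value, for selected genes only.

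Size factors were solved from counts and mean normalized counts (largest relative error 5.0e-10). Library totals were solved from FPKM and gave back 100.0% of FPKM values within 0.006 plus 0.02%. The number of genes the authors tested, 18313, is the one at which 204 p-values gave the nearest to whole ranks.

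Counts of all 1305 genes were fitted in edgeR 4.0.16 (R 4.3.3) by quasi-likelihood, with treatment as the one term and the authors' size factors. Benjamini-Hochberg adjustment ran over 18313 tests with ranks among the listed genes, which cannot make an adjusted p smaller than with all genes ranked. The threshold was 0.05. Standard errors are the fold change over the root of F. The dispersions come from genes selected as changed, which can make p-values too small. The alternatives numbered 15, 1 of them added after seeing the data: TMM, DESeq2 factors (DESeq2 1.42.0) or library totals, the DESeq2 test, a minimum of 10 normalized reads, adjustment over listed genes, a fold threshold, a replicate block and left-out libraries. Ratios used scipy 1.17.1 and statsmodels 0.14.6.

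Values in every library are given for members named by a rule: the largest change and highest FPKM in each role list, the 5 highest with DMSO, the 5 largest falls, up to 10 rises, those nearest the authors' fold threshold, and any that missed the adjusted p. Values of WEE1, ASPM, CENPE, AURKB, B9D2 and DSN1 were added after their values were seen.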

Additional observations from a re-analysis of the deposited data

How the results depend on the processing

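Of 495 values (33 genes under 15 alternatives), 490 kept direction and call, 5 lost the call and 0 reversed. Size factors computed over the listed genes ended both rises: the number of members called higher was 0 with TMM and 0 with DESeq2 factors, and the median log2 fold change of the members moved from -1.11 to -1.79 and -2.10. Over all listed genes these factors gave 366 higher against 512 lower (41.7% higher) and 219 against 512 (30%), against 740 and 461 (61.6%) with the authors' factors. The other lost call was B9D2, at -0.87 without DMSO replicate 2 and mitoxantrone replicate 1. With any 1 library left out, all 33 genes passed, with adjusted p-values up to 0.041 in the edgeR quasi-likelihood test. Most listed genes passed too: 395 to 463 as lower, of 512 lower in the authors' table, and 622 to 715 as higher, of 793. The labels do not say that replicate numbers pair cultures. The deviations of same-numbered libraries correlated at -0.23, -0.15 and 0.03, and those of differently numbered libraries at -0.2 to 0.31. With 3 libraries per treatment, these values cannot decide whether same-numbered libraries shared a culture or day. With the replicate number as a block, 31 members were called lower and 2 higher, with a median of -1.10. Depth limits B9D2 most, with 31.7 normalized reads in its lowest library; the other members had more.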
